A study of Mus musculus with 6 samples.

Results

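Antisense RNAs with signal were examined in two-cell mouse embryos that overexpressed the E3 SUMO ligase PIASy. They are the genes of the type antisense_RNA with an FPKM (fragments counted per kilobase of exon, scaled to library depth) of at least 1 in at least 2 of the 6 libraries, leaving out Gas5 and genes named Snhg. This rule gave 613 genes out of 2727 antisense_RNA genes and 53023 genes in all. The same FPKM rule kept 16100 genes of every type, among them 1213 long intergenic noncoding RNAs (lincRNAs) and 11269 protein-coding genes. Since the level chose the members, their levels are given as a description. Just inside the limit, Gm10648 had a second-highest FPKM of 1.00 and Gm31763 one of 1.01. Just outside, Gm15265 had 0.995 and Gm12352 had 0.993.

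The 3 groups were non-injection embryos, embryos injected with mRNA for wild-type PIASy (PIASy-WT) and embryos injected with mRNA for the SUMO ligase mutant PIASy-C335F (PIASy-Mut). All embryos came from ICR mice over 8 weeks of age by in vitro fertilization and were collected 28 h after insemination. Each mRNA was injected at 100 ng/µl shortly after fertilization, and injected embryos were then selected by fluorescence, a step the non-injection embryos did not go through. Each group had 2 libraries of 5 pooled embryos, so the spread between libraries is that between pools, and no group was injected with an unrelated mRNA for these libraries. Pias4, the gene of PIASy, stood at an FPKM of 2.98 and 3.59 without injection, 862 and 611 with PIASy-Mut, and 610 and 579 with PIASy-WT. All 11 two-cell markers found in the table and all 12 oocyte markers passed the FPKM rule, whereas 2 of 13 cumulus cell markers did, and Foxl2, Inhba and Amh were listed at 0 in every library. The summed cumulus markers took 15.1 to 15.7 CPM (fragments scaled to library depth) in PIASy-WT, 21.2 to 22.0 in non-injection and 23.3 to 24.1 in PIASy-Mut. The summed oocyte markers took 8761 to 8886 CPM in PIASy-WT against 4491 to 4849 in non-injection and 4557 to 7345 in PIASy-Mut, and the summed two-cell markers took 1352 to 1926 against 2412 to 2708 and 2834 to 3073. By limma, Tdpoz4 of the two-cell list was lower in PIASy-WT than in both groups and Tcstv3 than in PIASy-Mut, Zp3 of the oocyte list was lower than in both, and Amhr2 of the cumulus list was lower than in non-injection. The part of these shifts in the results was not tested.

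An antisense RNA is transcribed from the strand opposite to another gene. It can start near the promoter of that gene and run away from it (head-to-head), run into its 3' end (tail-to-tail), or lie inside it, often within an intron. Antisense transcription is known to silence neighbouring genes at imprinted loci. In mouse oocytes, pairs of sense and antisense RNA can also be cut by Dicer into small interfering RNAs.

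The kit used here does not keep the strand of the RNA, and whether strand was used in counting is not given in the sources used here. The values show what was counted. Of 440 genes whose exon bases all lie within exons of a gene on the opposite strand, 0 had a single fragment in any library, whereas 20427 of 41820 genes that share no exon base did. The same held within the antisense type, with 0 of 71 genes against 502 of 1116. An antisense RNA thus had a value only from bases that no other gene holds, and on those bases RNA from the 2 strands cannot be told apart, unspliced RNA of the opposite gene included. The FPKM still divides by the full length, so it understates an antisense RNA that shares bases, and FPKM of an antisense RNA and of its partner are set side by side below with that limit.

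The following stretches of 6 antisense RNAs with a changed level or ratio show this. Each is read 5' to 3' along the RNA in the GENCODE M21 transcripts (GRCm38, the same build as mm10). Capitals mark bases that belong to this gene alone and could be counted, and lower case marks bases in the exon of another gene, shown for at most 30 bases. Taco1os, Gm13068 and Scpep1os cross from a shared stretch into their own bases, and the others are shown in an exon that is theirs alone. The stretches lie at chr11:106065941-106066090 on the minus strand for Taco1os (exon 1 of 2), chr11:6493368-6493517 on the plus strand for Gm11973 (exon 3 of 3), chr4:149749300-149749449 on the plus strand for Gm13068 (exon 2 of 2), chr4:45234832-45234981 on the minus strand for Frmpd1os (exon 3 of 3), chr2:129246376-129246525 on the plus strand for Gm14024 (exon 1 of 3) and chr11:88935922-88936061 on the plus strand for Scpep1os (exon 5 of 5).
Taco1os: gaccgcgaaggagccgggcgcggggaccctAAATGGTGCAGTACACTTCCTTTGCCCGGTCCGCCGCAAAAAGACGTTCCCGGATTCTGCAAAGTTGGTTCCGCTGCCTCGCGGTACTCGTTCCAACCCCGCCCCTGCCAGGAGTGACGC
Gm11973: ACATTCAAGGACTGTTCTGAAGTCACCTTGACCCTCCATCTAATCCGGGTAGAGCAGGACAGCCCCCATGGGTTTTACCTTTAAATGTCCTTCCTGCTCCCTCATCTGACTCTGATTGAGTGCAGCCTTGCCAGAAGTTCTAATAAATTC
Gm13068: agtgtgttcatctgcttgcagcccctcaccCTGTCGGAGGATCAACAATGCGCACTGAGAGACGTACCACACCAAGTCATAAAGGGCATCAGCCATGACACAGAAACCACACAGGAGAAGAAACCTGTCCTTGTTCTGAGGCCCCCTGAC
Frmpd1os: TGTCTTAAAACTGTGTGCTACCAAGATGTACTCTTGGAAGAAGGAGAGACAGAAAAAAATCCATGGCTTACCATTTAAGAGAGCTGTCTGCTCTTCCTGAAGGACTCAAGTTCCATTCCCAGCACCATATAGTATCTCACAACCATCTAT
Gm14024: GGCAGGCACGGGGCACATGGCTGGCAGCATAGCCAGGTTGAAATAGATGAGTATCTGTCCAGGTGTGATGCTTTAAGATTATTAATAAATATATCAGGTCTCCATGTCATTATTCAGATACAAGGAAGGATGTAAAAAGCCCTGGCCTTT
Scpep1os: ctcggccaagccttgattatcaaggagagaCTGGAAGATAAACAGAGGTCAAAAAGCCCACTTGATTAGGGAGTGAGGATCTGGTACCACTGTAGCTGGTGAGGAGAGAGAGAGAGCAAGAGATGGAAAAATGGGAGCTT

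The 613 antisense RNAs were short and mostly shallow. Their median length was 858 bases, with 746 bases of their own, and 569 had at least 2 exon blocks. A protein-coding gene overlapped 546 of them on the opposite strand, and 49 of these had more than 1 such partner. The partner used was the one with the longest overlap. Among the 546, 248 lay within the partner, 159 were head-to-head, 108 tail-to-tail and 31 held the partner within their own span. A further 27 started within 1 kb of a coding gene and ran the other way without overlap, and 40 had no partner. No exon base was shared with the opposite strand in 249 members, and 38 shared over 50% of their exon bases.

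The libraries held 1363928 and 1130853 fragments on genes (non-injection), 1032206 and 871663 (PIASy-Mut) and 1325411 and 1149421 (PIASy-WT). Members took 0.449% and 0.495% of these without injection, with PIASy-Mut 0.545% and 0.516%, and with PIASy-WT 0.572% and 0.576%, so the 3 groups did not overlap in this share. Without the 8 members of highest mean FPKM it was 0.342% and 0.390%, 0.435% and 0.397%, and 0.386% and 0.404%, and PIASy-WT overlapped both other groups. This is 4499 to 7582 fragments a library spread over 613 genes, and 507 members averaged fewer than 10 fragments. In 151 members, 10 or more fragments were counted in 2 or more libraries. The median of the members' mean FPKM was 1.86, and 16 members averaged over 50. An FPKM of 1 or more was reached by at least 1 library of all 3 groups in 344 members, of 2 groups in 213 and of 1 group in 56, which was PIASy-WT in 30, non-injection in 20 and PIASy-Mut in 6. Membership needed the libraries of PIASy-WT in 142 members, those of PIASy-Mut in 113 and those of non-injection in 108, in that the other 4 libraries alone did not meet the rule.

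Below, FPKM values are given for replicates 1 and 2 of non-injection, then PIASy-Mut, then PIASy-WT, and log2 fold changes with their SE for PIASy-WT against non-injection and then, where a second is given, against PIASy-Mut. The 8 members with the highest mean FPKM carried 22.6% (non-injection), 21.5% (PIASy-Mut) and 31.3% (PIASy-WT) of the member fragments. In 5 of the 8, both PIASy-WT libraries lay above all 4 others. The share was 19.9% over all 16100 genes and 25.2% among members with at least 10 fragments in 2 libraries. The mean that ranked the 8 includes the PIASy-WT libraries, which favours members high there. Limma called 0 of the 8 against either group. At an unadjusted p under 0.05 there were 3 in each comparison (28.2% and 27.7% of all genes). Voom on the recovered fragments gave 4 against non-injection and 2 against PIASy-Mut an adjusted p of at most 0.05. It called 27.5% and 24.7% of the 10193 genes it tested in these comparisons. AC117949.2, which lies within Atp9b, had an FPKM of 181 and 266, 114 and 281, and 439 and 495 (log2 fold change 1.08 ± 0.46 SE against non-injection, limma adjusted p = 0.19). Gm42817, within Tmem132d, had 114 and 168, 89.4 and 293, and 339 and 370 (1.35 ± 0.55, limma adjusted p = 0.18). In both, the 2 PIASy-Mut libraries were further apart than the 2 of any other group. Arhgap20os, tail-to-tail with Arhgap20, a gene for a GTPase-activating protein, was the most deeply counted member, with 427 to 1276 fragments a library. Its FPKM was 194 and 143, 160 and 189, and 364 and 291 (0.96 ± 0.27, limma adjusted p = 0.085). AC133947.1, within the G protein subunit gene Gnb5, had 66.9 and 64.8, 61.5 and 131, and 156 and 207 (1.43 ± 0.39, limma adjusted p = 0.079). Gm20234 stood at 76.7 and 101, 100.0 and 56.0, and 104 and 113, with 18.0% of its 50-base words also present in genes elsewhere. The other three were flat or scattered. Gt(ROSA)26Sor, the broadly expressed RNA of the Rosa26 locus, stood at 90.4 and 112, 150 and 97.5, and 108 and 106. Gm12531 had 202 and 116, 286 and 75.4, and 105 and 32.2, so that the PIASy-WT libraries lay below those of non-injection. PIASy-Mut replicate 1 lay above the non-injection libraries, and PIASy-Mut replicate 2 lay between the PIASy-WT libraries. Gm16243 ranged from 61.1 to 111 with overlapping groups.

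To ask in which direction the members moved over the 3 groups, the libraries were first compared without a test. Both PIASy-WT libraries lay above all 4 others in 99 members (16.2%) and below all 4 others in 75 (12.2%), while the background over all 16100 genes was 19.9% above and 24.4% below. Both shares of members were under the background, and the lower one was near that of lincRNAs (12.1% below, 22.8% above). Among the 151 members with at least 10 fragments the shares were 25.2% above and 28.5% below. Non-injection stood below the rest in 6.69% of members (background 7.16%) and above in 7.50% (5.02%). PIASy-Mut stood below in 3.10% (4.56%) and above in 6.69% (6.42%). By group means, PIASy-WT was highest in 251 members (40.9%, all genes 41.1%) and lowest in 206 (33.6%, all genes 42.3%). Non-injection was highest in 150 (24.5%, all genes 24.7%) and lowest in 247 (40.3%, all genes 32.9%), and PIASy-Mut was highest in 212 (34.6%, all genes 34.2%) and lowest in 160 (26.1%, all genes 24.8%). The difference between the members and the background was not tested.

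**Figure D1:**
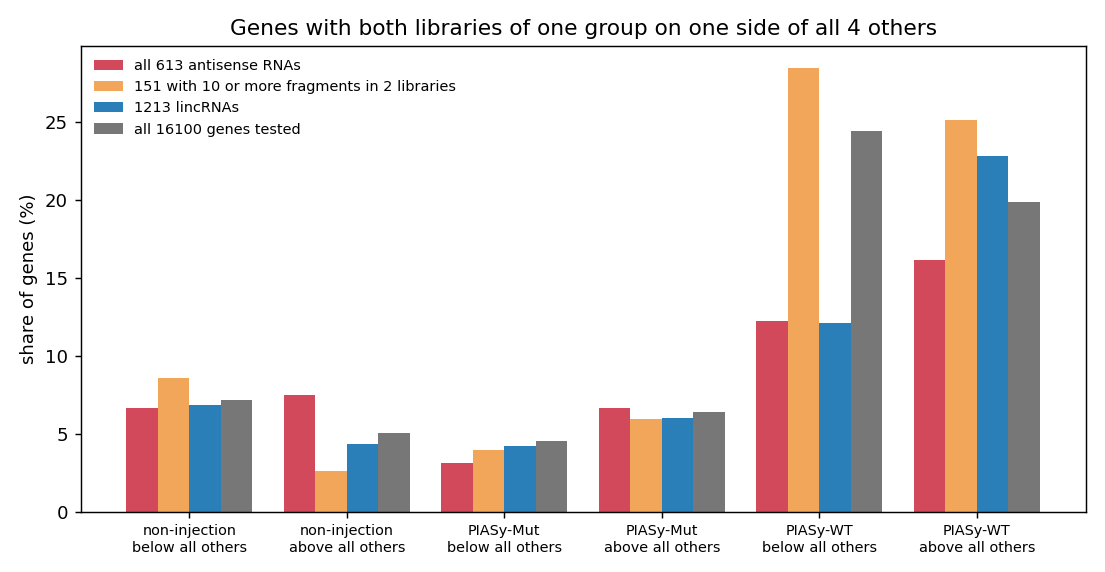
Share of genes (y axis, %) in which both libraries of 1 group lay on one side of all 4 others, for each group and side (x axis). Bars stand for all antisense RNAs, those with at least 10 fragments in 2 libraries, lincRNAs and all genes tested. The tallest bars are those of PIASy-WT, with 12.2% of all antisense RNAs below and 16.2% above against 24.4% and 19.9% of all genes.

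In limma across all 16100 genes, members changed in PIASy-WT in both directions and not detectably in PIASy-Mut. A gene was called where the Benjamini-Hochberg adjusted p did not exceed 0.05 and the log2 fold change was 2 or more in size. Against non-injection, 13 members were lower in PIASy-WT (2.12%, background 3.81%) and 10 were higher (1.63%, background 0.602%). Against PIASy-Mut, 15 were lower (2.45%, background 4.06%) and 6 were higher (0.979%, background 0.516%). The corresponding shares of lincRNAs were 1.57%, 1.98%, 2.14% and 1.48%. With a limit of 1 in place of 2, the members counted 13 lower (background 5.76%) and 14 higher (background 1.03%) against non-injection, and 17 lower (background 6.01%) and 8 higher (background 0.820%) against PIASy-Mut. In PIASy-Mut against non-injection, 0 members were called in limma in either direction (background 0% lower and 0.00621% higher, which is Pias4 alone), and voom on the recovered fragments called 0 too. At an unadjusted p under 0.05 there were 58 members in that comparison (9.46% of members, 4.46% of all genes), against 161 (26.3%, 28.2%) in PIASy-WT against non-injection and 135 (22.0%, 27.7%) in PIASy-WT against PIASy-Mut. The median log2 fold change of the members was 0.14 in PIASy-WT against non-injection, 0.07 against PIASy-Mut and 0.07 in PIASy-Mut against non-injection, where all genes had 0.01, -0.03 and 0.04.

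The counts moved when 1 library was left out, which also costs the fit a degree of freedom and, where an arm keeps 1 library, takes its spread from the other groups. Without any one of the non-injection or PIASy-WT libraries, limma called 0 members in either comparison of PIASy-WT. The fold change of Frmpd1os, for example, stayed large against non-injection, at -4.78 to -5.45 in these fits on the log2 scale. Against PIASy-Mut it was -4.89 with or without a non-injection library. That value could not move, since the fold change against PIASy-Mut does not use the non-injection libraries. Without one of the PIASy-Mut libraries there were 16 or 17 lower and 10 higher against non-injection. Without PIASy-Mut replicate 1 the counts against PIASy-Mut were 0, and without PIASy-Mut replicate 2 they were 28 lower and 19 higher. With quantile normalization, which moved the median of all genes to 0.12 and 0.11, the counts were 11 lower and 12 higher against non-injection and 7 lower and 6 higher against PIASy-Mut. The higher calls were mostly of few fragments: only 1 of the 10 higher against non-injection and 1 of the 6 higher against PIASy-Mut had at least 10 fragments in 2 libraries, compared with 10 of the 13 and 12 of the 15 lower ones. Of the 10 members higher against non-injection, 5 were members only through the PIASy-WT libraries, as were 5 of the 6 higher against PIASy-Mut, so these were chosen for being high there. Of the lower members, 2 of 13 were members only through the non-injection libraries and 1 of 15 only through those of PIASy-Mut.

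Among members called against both other groups with at least 10 fragments in 2 libraries, the 8 with the most negative mean of both fold changes fell by 2.63 to 5.11 on the log2 scale against non-injection. Each passed in 3 to 9 of 13 alternative settings against non-injection and in 4 to 7 of 13 against PIASy-Mut, with the lowest count against non-injection for 2900093K20Rik. Frmpd1os (chr4:45234723-45243990, minus strand), within Frmpd1, a gene for a FERM and PDZ domain protein, and sharing no exon base with it, had an FPKM of 26.5 and 42.6, 49.0 and 16.6, and 0 and 0. It was counted with 15, 20, 21 and 6 fragments in the first 4 libraries and 0 in both PIASy-WT libraries. The limma log2 fold change was -5.11 ± 0.55 against non-injection (adjusted p = 0.022) and -4.89 ± 0.55 against PIASy-Mut (adjusted p = 0.022). Taking 3 fragments a library as the limit, its level was at least 5.89-fold lower relative to non-injection, and relative to PIASy-Mut at least 5.59-fold lower. Frmpd1 itself had 0 to 5 fragments a library and did not pass the FPKM rule.

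Taco1os (chr11:106065077-106066305, minus strand) is head-to-head with Taco1, a translational activator of a mitochondrially encoded cytochrome c oxidase subunit. It had an FPKM of 17.1 and 17.9, 16.5 and 8.91, and 0 in both PIASy-WT libraries, which is at least 4.62-fold and at least 3.36-fold lower (limma log2 fold change -4.21 ± 0.39, adjusted p = 0.022, and -3.72 ± 0.39, adjusted p = 0.022). Taco1 had 7.42 and 9.59, 6.30 and 1.66, and 1.09 and 3.77, so its PIASy-Mut and PIASy-WT libraries overlapped. Gm11973 (chr11:6475425-6493535, plus strand) is head-to-head with Purb, a single-stranded nucleic acid-binding protein gene. It had 33.1 and 28.1, 71.5 and 30.6, and 1.55 and 2.68 (-3.36 ± 0.46, adjusted p = 0.026, and -3.97 ± 0.46, adjusted p = 0.022). Purb had 5.46 and 7.23, 8.15 and 5.24, and 1.72 and 1.05, with both PIASy-WT libraries below the other four and a limma adjusted p of 0.063 against non-injection.

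Gm12735 (chr11:3193516-3194263, minus strand), with no coding partner, had 48.4 and 42.1, 67.0 and 38.8, and 3.48 and 4.01 (-3.29 ± 0.33, adjusted p = 0.022, and -3.46 ± 0.33, adjusted p = 0.022). Gm13068 (chr4:149748518-149749607, plus strand), within Slc25a33, a mitochondrial pyrimidine nucleotide carrier gene, was the deepest of the 8 with 97, 101, 134 and 40 fragments in the other libraries against 15 and 15 in PIASy-WT. Its FPKM was 81.2 and 102, 148 and 52.4, and 12.9 and 14.9 (-2.63 ± 0.49, adjusted p = 0.038, and -2.58 ± 0.49, adjusted p = 0.038). Quantile normalization ended its call against PIASy-Mut (limma adjusted p = 0.053). In both genes the PIASy-WT libraries were close to each other and far below the other four.

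The single-exon 2900093K20Rik (chr2:163419795-163420361, plus strand), within Oser1, an oxidative stress-responsive gene, had 32.3 and 51.5, 44.4 and 40.5, and 9.31 and 3.07 (-2.69 ± 0.49, adjusted p = 0.037, and -2.74 ± 0.49, adjusted p = 0.034). Quantile normalization ended both calls (limma adjusted p = 0.051 and 0.056). AC140409.1 (chr9:40747281-40762673, minus strand), within the cell adhesion gene Clmp, had 11.4 and 13.7, 35.5 and 11.3, and 1.06 and 1.23, from 22, 33 and 2 fragments in the 3 groups. The log2 fold change was -2.65 ± 0.54 (limma adjusted p = 0.044) and -3.31 ± 0.54 (limma adjusted p = 0.030), and the ratio of fragments per depth was 10.9 against non-injection (95% exact interval 2.68 to 95.7) and 21.4 against PIASy-Mut (5.49 to 184). Voom gave it an adjusted p of 0.10 and 0.051. Gm11309 (chr13:22691299-22714987, plus strand) had 15.5 and 23.1, 7.90 and 3.74, and 0 in both PIASy-WT libraries. The log2 fold change was -4.32 ± 0.45 (limma adjusted p = 0.022) and -2.70 ± 0.45 (limma adjusted p = 0.030). Its level was at least 4.86-fold lower relative to non-injection but, from 7 against 0 fragments, at least 1.46-fold lower relative to PIASy-Mut, and voom gave an adjusted p of 0.083 against PIASy-Mut. Its value is uncertain, since 78.0% of its 50-base words are also present in 4 genes elsewhere and 206 of its 613 bases are its own.

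The long 1600010M07Rik, which spans the nuclear import receptor gene Ipo7 and was chosen after its values were seen, had 73.4 and 31.2, 103 and 39.1, and 8.29 and 2.01, from 19 and 4 fragments in PIASy-WT (-3.21 ± 0.74, limma adjusted p = 0.056, and -3.61 ± 0.74, limma adjusted p = 0.046). Quantile normalization ended the call against PIASy-Mut (limma adjusted p = 0.064). Ipo7 was also lowest in PIASy-WT, with 10.6 and 8.31, 14.1 and 8.42, and 3.92 and 1.56 (-1.55 ± 0.45, limma adjusted p = 0.091).

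Members higher in PIASy-WT were fewer in fragments. Gm12705 was the only one with at least 10 fragments in 2 libraries that was called against both groups with the limit of 1. It had 2.52 and 3.04, 2.22 and 1.32, and 12.1 and 16.0, from 1 to 3 fragments in each of the first 4 libraries and 14 and 16 in PIASy-WT (1.98 ± 0.37, limma adjusted p = 0.038, and 2.45 ± 0.37, limma adjusted p = 0.027). Voom on its fragments gave an adjusted p of 0.071 and 0.088, and it passed in 5 of 13 alternative settings in each comparison. Scpep1os (chr11:88905928-88936061, plus strand), chosen after its values were seen, is tail-to-tail with the serine carboxypeptidase gene Scpep1. It had 0.904 and 1.09, 3.58 and 5.66, and 17.7 and 13.9, so the 3 groups did not overlap (3.07 ± 0.37, limma adjusted p = 0.023, and 1.60 ± 0.37, limma adjusted p = 0.057). Its fragments per depth were 16.1 times those in non-injection (95% exact interval 4.11 to 139), from 32 against 2 fragments. Also chosen after their values were seen, Gm16333, 4930455G09Rik, Gm15050, which lies within Hoxa3, and CT010505.2, within App, were called against both groups with 0 fragments in all 4 other libraries and 1 to 7 fragments in each PIASy-WT library. They met the FPKM rule through PIASy-WT alone, so their fold changes follow from their choice.

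**Figure D2:**
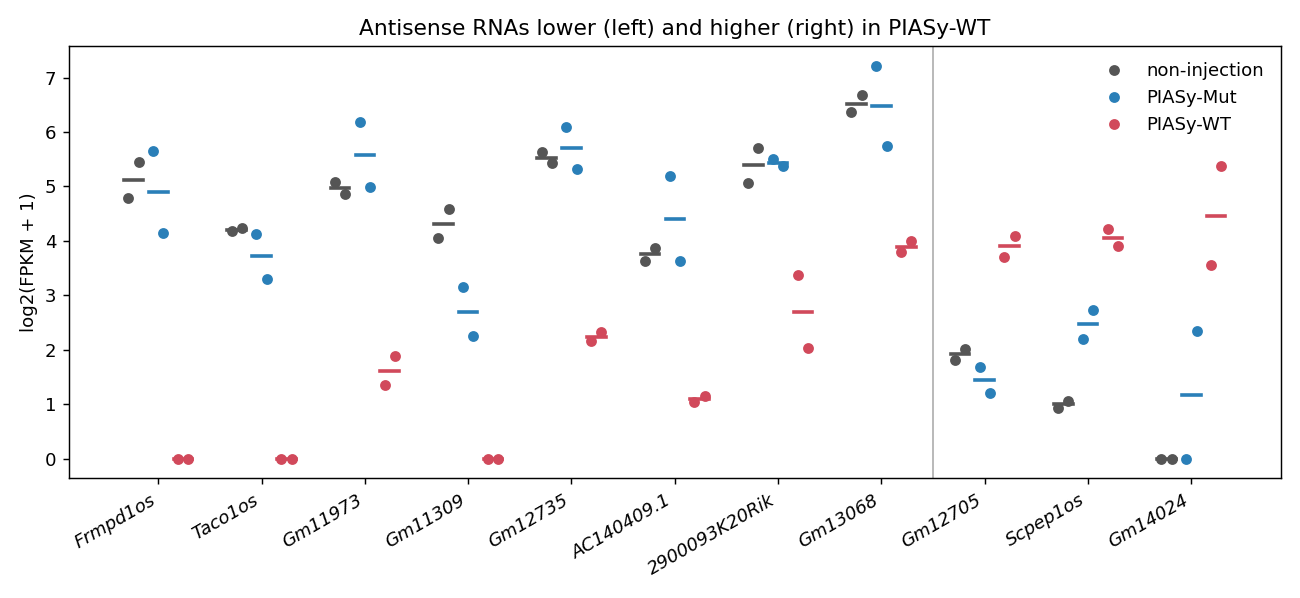
Level of 11 antisense RNAs on the log2(FPKM + 1) scale (y axis) in each library, with a dot for each library, a bar for the group mean and a colour for each group. Left of the line are the 8 lower members named by the rule, whose PIASy-WT dots lie below all 4 others, and right of it are 3 higher members.

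Of the members fixed by name, Frmpd1os is described above. Dlx6os1, antisense to the homeobox gene Dlx6, had an FPKM of 0.142 and 0, 0.375 and 0.887, and 1.90 and 1.01, from 1, 6 and 19 fragments in the 3 groups (limma adjusted p = 0.14 against non-injection). It met the FPKM rule through PIASy-WT alone. Hotairm1 had 0 to 4 fragments a library with overlapping groups. Gene lists for RNA interference and double-stranded RNA sensing were examined beside the antisense RNAs. Of 22 genes, 19 were tested, and limma called 0 in PIASy-WT against either group, with 5 against non-injection and 4 against PIASy-Mut at an unadjusted p under 0.05 (28.2% and 27.7% of all genes). Voom gave 3 of the 18 it tested an adjusted p of at most 0.05 in each comparison, against 27.5% and 24.7% of all genes. The largest log2 fold changes against non-injection were in the RNA sensor gene Ddx58 (1.83, limma adjusted p = 0.097 against non-injection) and in Stau2, a double-stranded RNA-binding protein gene (1.72, limma adjusted p = 0.083). Dicer1 stood at 9.19 to 12.0 in all 6 libraries, with a difference of 0.28 (limma adjusted p = 0.54).

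Each member was then compared with the coding gene on its opposite strand. Of the 546 overlapping partners, 392 passed the FPKM rule. The mean FPKM of the member was above that of its partner in 290 of 546 pairs, and in 143 of the 392 with a tested partner. It was above in 264 pairs (non-injection), 273 (PIASy-Mut) and 284 (PIASy-WT). The median partner had a mean FPKM of 2.12, with 2.51 for head-to-head, 2.16 for members within the partner, 2.08 for tail-to-tail and 0.441 for partners that lay within the member.

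In PIASy-WT against non-injection, the log2 fold changes of member and partner had the same sign in 244 of 392 pairs (62.2%), with Pearson's r = 0.26 across pairs. The values for the 1204 pairs of other gene types were 55.3% and 0.13. Against PIASy-Mut, members had the same sign in 57.9% (r = 0.16), near the 56.7% (r = 0.19) of the other gene types. By arrangement and against non-injection, members within the partner had the same sign in 115 of 174 pairs (66.1%, r = 0.34), head-to-head members in 80 of 124 (64.5%, r = 0.29) tail-to-tail members in 40 of 78 (51.3%, r = 0.02) and members that hold the partner in 9 of 16 (r = 0.33). The 25 divergent pairs without overlap had the same sign in 12 (48.0%, r = -0.02). Against PIASy-Mut the shares in the same order were 60.9%, 57.3%, 51.3% and 62.5% for the 4 overlapping arrangements, and r was 0.25, 0.22, -0.14 and 0.19. With at least 10 fragments in 2 libraries, the shares against non-injection for the first 3 of these were 32 of 45 (71.1%), 24 of 31 (77.4%) and 12 of 26 (46.2%), and against PIASy-Mut 37 of 45 (82.2%), 20 of 31 (64.5%) and 13 of 26. Over all such deeper pairs they were 69 of 106 (65.1%, r = 0.37) against non-injection and 72 of 106 (67.9%, r = 0.29) against PIASy-Mut. The pairs of other gene types were not limited to this depth, so these deeper shares have no like background. In PIASy-Mut against non-injection, 196 of 392 pairs had the same sign (r = 0.08). Pairs share libraries and depth, and a member inside an intron shares its locus with unspliced RNA of its partner, so these are descriptions across pairs and the differences between arrangements were not tested.

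**Figure D3:**
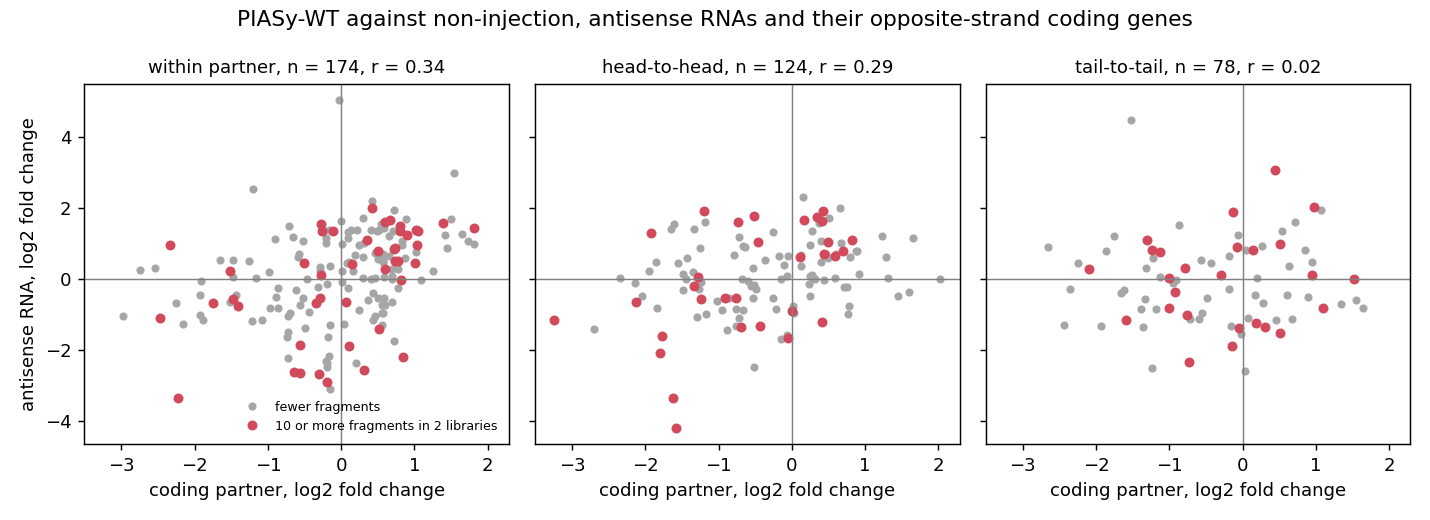
Log2 fold change of PIASy-WT against non-injection in the antisense RNA (y axis) and in its opposite-strand coding gene (x axis), with a dot for each pair and a panel for each arrangement. Larger red dots are antisense RNAs with at least 10 fragments in 2 libraries. Dots lean along the diagonal for members within the partner and head-to-head (r = 0.34 and 0.29) and not for tail-to-tail (r = 0.02).

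Limma gave 0 partners of called members an adjusted p at or under 0.05, whereas voom called some. For comparison, 28.2% of all genes had an unadjusted p under 0.05 against non-injection and 27.7% against PIASy-Mut, and voom called 27.5% and 24.7%. The log2 fold change was negative in 49.1% and positive in 50.5% of all genes against non-injection. Against PIASy-Mut these shares were 51.3% and 48.3%. Whether the partners differ from all genes was not tested. Among the 13 members lower against non-injection, 8 had a tested overlapping partner, of which 7 also had a negative log2 fold change. Of these 8 partners, 2 had an unadjusted p under 0.05 and voom called 1. Among the 14 members higher at the smaller fold change limit of 1, 8 had a tested partner, of which 3 had a positive log2 fold change. They share 7 partners, of which 3 had an unadjusted p under 0.05 and voom called 2. Of the 11 tested partners of the 17 members lower against PIASy-Mut, 10 had a negative log2 fold change, 3 had an unadjusted p under 0.05 and voom called 3. For the 8 higher members 2 partners were tested, both with a positive log2 fold change, and 0 had an unadjusted p under 0.05 or were called by voom.

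The log2 ratio of member to partner was tested with limma over 1596 pairs of any gene type with an overlapping coding gene, 392 of them with a member. With an adjusted p not over 0.05 and a change of 1 or more, the ratio fell in PIASy-WT against non-injection in 3 member pairs (0.765%, background 2.07%) and rose in 11 (2.81%, background 3.20%). Against PIASy-Mut it was lower in 3 (0.765%, background 1.19%) and higher in 3 (0.765%, background 1.19%). Among the ratios that rose against non-injection, Gssos1, 2310040G07Rik, A230020J21Rik, Gm16275 and Gm14024 are members only through the PIASy-WT libraries. Gssos1 and 2310040G07Rik are also among those that rose against PIASy-Mut. Their choice favoured a high level in PIASy-WT. In PIASy-Mut against non-injection limma called 0 (background 0%), voom called 0 too, and 23 (5.87%, all pairs 4.32%) had an unadjusted p under 0.05. That count was 94 (24.0%, all pairs 25.1%) in PIASy-WT against non-injection and 95 (24.2%, all pairs 24.4%) against PIASy-Mut. Without non-injection replicate 1, non-injection replicate 2 or PIASy-WT replicate 2, 0 ratios were called against non-injection, and without PIASy-WT replicate 1 there were 3. Without either PIASy-Mut library there were 31. Against PIASy-Mut there were 0 without PIASy-Mut replicate 1 or PIASy-WT replicate 2, 1 without any other library but PIASy-Mut replicate 2, and 32 without that one.

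The largest ratio change among those called was in Gm14024 (chr2:129246376-129268526, plus strand), tail-to-tail with Ckap2l, a mitotic spindle protein gene. Gm14024 had an FPKM of 0 and 0, 0 and 4.10, and 10.8 and 40.4, at least 5.91-fold higher in PIASy-WT relative to non-injection. This limit sets the mean of the unlike PIASy-WT libraries (25.6) over a floor of 4.33, so it is lower for replicate 1 alone. Gm14024 is a member only through its PIASy-WT libraries, so the direction of its change follows from its choice. Ckap2l had 29.7 and 30.2, 68.9 and 18.7, and 12.3 and 7.77, so both PIASy-WT libraries were above the others for the antisense RNA and below the others for the coding gene. The log2 ratio changed by 5.98 ± 1.26 (limma adjusted p = 0.035) against non-injection and by 5.07 ± 1.26 (limma adjusted p = 0.060) against PIASy-Mut.

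Gm16222, within the sodium-glucose cotransporter family gene Slc5a4b, had 20.3 and 35.4, 27.6 and 55.7, and 37.2 and 75.1, with overlapping groups. Slc5a4b had 4.58 and 11.0, 9.08 and 4.30, and 0.707 and 0.543. The ratio was higher by 3.29 ± 0.72 (limma adjusted p = 0.036) against non-injection and by 2.59 ± 0.72 (limma adjusted p = 0.069) against PIASy-Mut. Against non-injection, the log2 fold change was 0.95 ± 0.51 in the antisense RNA (limma adjusted p = 0.27) and -2.34 ± 0.53 in the coding gene (limma adjusted p = 0.055). Of the 50-base words of Gm16222, 9.53% are also present elsewhere. Gm16137 and Gm16136, the latter chosen after its values were seen, are both antisense to Grhl2, a transcription factor gene of epithelia. Gm16136 had 4.53 and 4.10, 8.24 and 6.21, and 13.4 and 26.9, and Grhl2 had 6.21 and 13.7, 12.8 and 7.19, and 2.89 and 4.14. The ratio to Grhl2 was higher by 3.12 ± 0.59 for Gm16136 (limma adjusted p = 0.026) and by 3.73 ± 0.62 for Gm16137 (limma adjusted p = 0.018), which had 0 and 0, 3 and 1, and 3 and 5 fragments. Against PIASy-Mut neither ratio passed, with 2.55 ± 0.59 for Gm16136 (limma adjusted p = 0.060) and 1.84 ± 0.62 for Gm16137 (limma adjusted p = 0.11).

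The other members of the largest 6 had few fragments. Gm28960, of 99 bases within the NAD synthesis gene Nmnat2, had 0 and 0, 2 and 1, and 3 and 5 fragments, with an FPKM of up to 43.9 and a ratio change of 5.06 ± 0.66 (limma adjusted p = 0.010) against non-injection and 0.73 ± 0.66 (limma adjusted p = 0.54) against PIASy-Mut. Its level was at least 1.36-fold higher in PIASy-WT relative to non-injection, and 24.0% of its 50-base words are also present in 2 other genes. A230020J21Rik, head-to-head with the haem exporter gene Flvcr1, had 0 and 0, 0 and 1, and 5 and 3 fragments. It met the FPKM rule through PIASy-WT alone, so the direction of its change follows from its choice. Gm16275, tail-to-tail with Flywch2, had 0 to 2 fragments a library and reached an FPKM of 1 in 1 library each of PIASy-Mut and PIASy-WT, while Flywch2 had 10.3 and 26.6, 28.2 and 11.5, and 0.758 and 3.49. The log2 fold change was 0.89 ± 0.72 in Gm16275 (limma adjusted p = 0.46) and larger in size in the coding gene (-2.65 ± 0.70, limma adjusted p = 0.073).

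Further pairs, Gm15564, Gm16239 and Scpep1os, were chosen after the values were seen. Of these, Scpep1os had few fragments, with 1 and 1, 3 and 4, and 19 and 13. Gm15564, tail-to-tail with Parp9, a gene of the ADP-ribosyltransferase family, stood at 42.9 and 49.5, 53.1 and 54.5, and 58.8 and 51.9. Parp9 had 4.06 and 6.17, 10.7 and 8.01, and 0.465 and 0.357, and it was lower in PIASy-WT (-2.10 ± 0.38, limma adjusted p = 0.037, and -2.87 ± 0.38, limma adjusted p = 0.024). The ratio was higher by 2.35 ± 0.47 (limma adjusted p = 0.031) and 2.90 ± 0.47 (limma adjusted p = 0.027). Gm16239 (chr10:99179184-99184610, minus strand) lies within the centriole protein gene Poc1b and shares no exon base with it. It had 24.5 and 23.8, 32.7 and 23.1, and 7.16 and 2.64, whereas Poc1b had 1.75 and 2.11, 3.24 and 3.01, and 5.04 and 3.53, above the other four in PIASy-WT. The ratio changed by -3.05 ± 0.55 against non-injection (limma adjusted p = 0.022) and by -2.73 ± 0.55 against PIASy-Mut (limma adjusted p = 0.043). For 2900093K20Rik the ratio changed by -2.39 ± 0.54 (limma adjusted p = 0.040) against non-injection and by -2.21 ± 0.54 (limma adjusted p = 0.060) against PIASy-Mut, and Oser1 stood at 131 and 102, 133 and 140, and 99.8 and 88.7. For Scpep1os it changed by 2.62 ± 0.44 (limma adjusted p = 0.019) against non-injection and by 1.44 ± 0.44 (limma adjusted p = 0.093) against PIASy-Mut, and Scpep1 stood at 83.6 to 135 in all libraries.

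**Figure D4:**
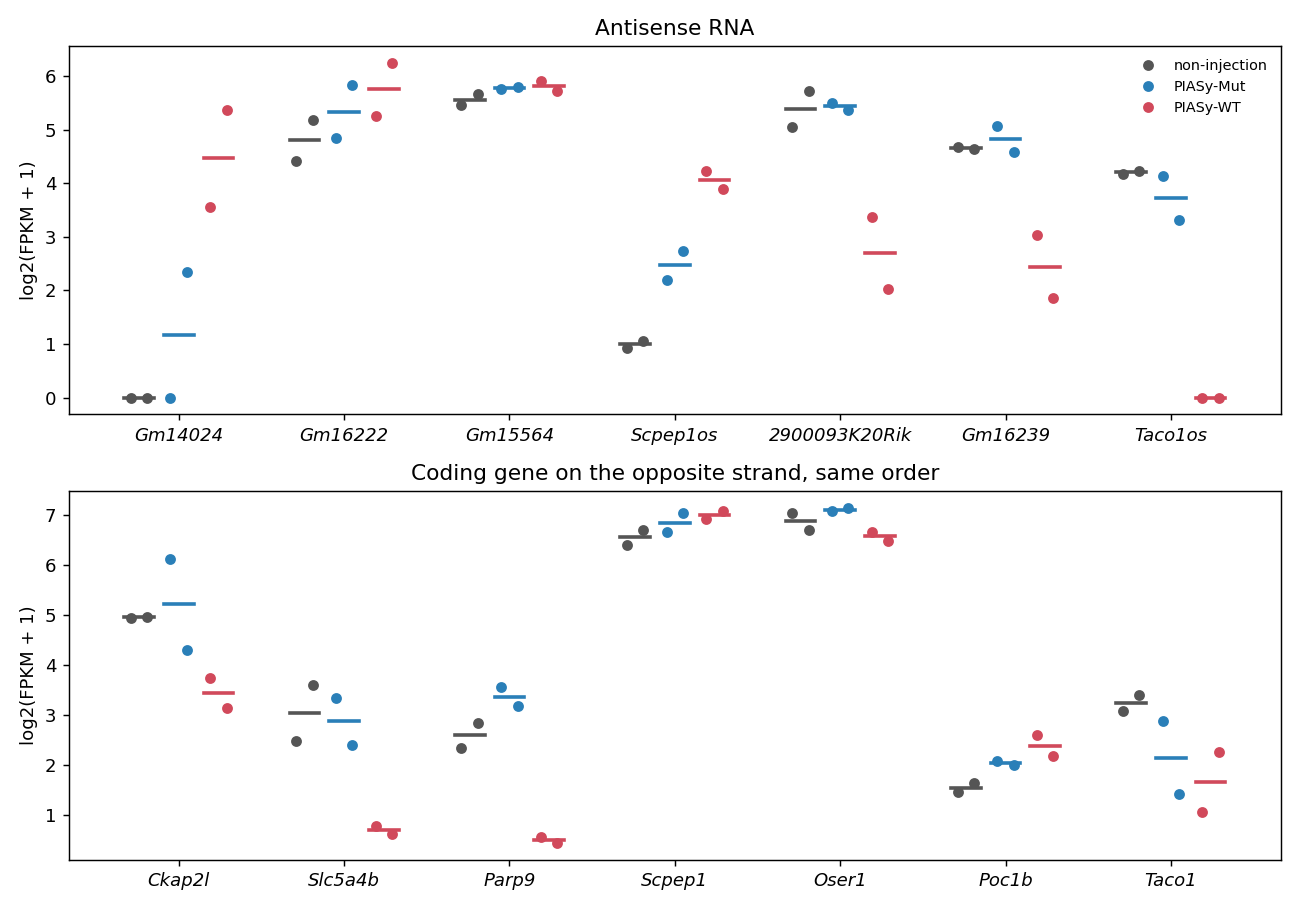
Level of 7 antisense RNAs (upper panel) and of their opposite-strand coding genes in the same order (lower panel) on the log2(FPKM + 1) scale (y axis), with a dot for each library, a bar for the group mean and a colour for each group. In PIASy-WT, Gm14024 is high where Ckap2l is low, Gm15564 stands at 51.9 to 58.8 where Parp9 is low, and 2900093K20Rik is low where Oser1 stands at 88.7 to 99.8 against 102 to 140 in the other groups.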

How the data were processed

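RNA-seq was carried out on 6 libraries of two-cell embryos, 2 in each of 3 groups. The authors amplified the cDNA, used Trim Galore for trimming, STAR for alignment to mm10 and featureCounts for counting reads with a unique position. The deposited values are FPKM per gene. The annotation release and the use of strand are not given in the sources used here. FPKM times length, over what 1 fragment is worth, was whole (within 0.01) for 100% of values above 0, which gave the fragments and depths. All 6 value columns were used.

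Groups were compared with limma 3.58.1 (R 4.3.3), lmFit and eBayes with a trend, on log2(FPKM + 1) of all 6 libraries and 16100 genes, with Benjamini-Hochberg adjustment. The fit had 3 residual degrees of freedom. The log2 ratio of a gene to its opposite-strand coding gene was fitted likewise over 1596 pairs. Fold changes are on the log2(FPKM + 1) scale and understate those of low genes. As the deposited values are not counts, the recovered fragments were used only in an alternative fit with voom. P-values measure the spread between libraries of pooled embryos. Intervals are 95% exact and cover counting error only, as does the limit of 3 fragments.

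Members and lists were chosen with earlier results of these data known. Named by rule were the 8 members with the highest mean FPKM, up to 8 in each direction called against both groups with a log2 fold change limit of 1, both PIASy-WT libraries on one side of the other 4 and at least 10 fragments in 2 libraries, the 6 largest ratio changes against non-injection, the partners of these and members listed by name. Sequences came from GENCODE M21, which held a transcript of all 30 named members. A motif search in promoters was left out, as too few members had a promoter window at their start. Some partner genes are not reported here. Fits were tested on simulated data in which only deeply counted genes changed, so the outcome does not extend to members with few fragments. Tables were made with pandas 2.3.3, numpy 2.4.6 and scipy 1.17.1 in Python 3.11.15, and plots with matplotlib 3.10.9.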

Additional observations from a re-analysis of the deposited data

How the results depend on the processing

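Most counts moved with the processing. Against non-injection, the 13 lower members were 4 with no filter on low values, and the 10 higher members were 3 with no filter, 5 with an FPKM of at least 5, 3 with voom and 1 among members with at least 10 fragments in 2 libraries, a setting added after the data were seen. Against PIASy-Mut, the 15 lower members were 4 with no filter, 7 with quantile normalization and 0 with only the groups compared in the fit, and the 6 higher members were 0 with no filter, 2 with an FPKM of at least 5, 0 with only the groups compared, 0 with voom and 1 with at least 10 fragments. The 14 ratios called against non-injection were 4 with a pseudocount of 0.1, 5 with no filter, 8 with an FPKM of at least 5, 31 with only the groups compared and 9 with under 10% of exon bases shared. The 6 ratios called against PIASy-Mut were 2 with a pseudocount of 0.1, 2 with no filter, 16 with an FPKM of at least 5, 1 with only the groups compared, 16 with voom and 3 with under 10% of exon bases shared. Voom tested 151 members and the FPKM limit of 5 tested 218, and the cause of the other shifts was not tested. Leaving out 1 library at a time gave 0 to 17 lower and 0 to 10 higher members against non-injection, 0 to 28 lower and 0 to 19 higher against PIASy-Mut, and 0 to 31 and 0 to 32 ratios. PIASy-Mut against non-injection gave 0 in every setting run. Quantile normalization moved the share of lower calls from 71.4% to 53.8% against PIASy-Mut.

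Over all genes tested, deviations of same-numbered libraries from their group means had correlations of 0.00368, 0.0851 and 0.0637 between groups. Such low values do not exclude a pairing, and whether same-numbered libraries share a fertilization is not given in the sources used here. A replicate block gave 11 lower and 7 higher members against non-injection, 14 and 5 against PIASy-Mut, and 10 and 2 ratios. With the block, AC140409.1, 2900093K20Rik, Gm13068, Gm12705, Gm16137 and Gm16136 were not called against non-injection and Gm13068 was not called against PIASy-Mut. For the named members, 544 of the values under other settings kept their direction and side of the threshold, 176 lost and 25 gained a call and 11 changed sign, none of which was called. These were Gt(ROSA)26Sor against PIASy-Mut (0.15 with quantile normalization, 0.14 to -0.48 without a PIASy-Mut library) and against non-injection (-0.058 to 0.24 without a non-injection library), Gm16243 against PIASy-Mut (0.067 with quantile normalization, 0.080 to -0.61 without a PIASy-Mut library), Gm16275 against PIASy-Mut (-0.62 to 1.16 without 1 library), Gm16222 against PIASy-Mut (-0.076 to 0.92 without 1 library), Gm15564 against PIASy-Mut (-0.050 to 0.13 without 1 library) and Hotairm1 against non-injection (0.32 to -1.06 without a non-injection library).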
